A study of Mus musculus with 12 samples.

Results

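Complement is a cascade of secreted proteases and fragments that tags cells and debris for removal, and 9 of its genes were followed here across 12 RNA-seq libraries of primary mouse oligodendrocyte precursor cells (OPCs). The genes were taken by symbol: the C1 proteases C1ra and C1s1, the components C4b, C2, C3 and Cfb, and the regulators Serping1, Cd55 and Cd59a. All 9 were among the 55536 genes with a transcript in the deposited tables, and all 9 were among the 18995 genes with enough counts to be tested.

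The OPCs came from pooled brains of P4 to P6 pups and were isolated either by sorting Sox10-GFP+ cells or with CD140a beads. The labels call every library Sox10GFP+ OPCs and do not say which isolation each had, and they give EAE as the mouse model although the protocol describes cultured pup cells. The mouse line, according to the methods of the study, marks the oligodendrocyte lineage through Sox10-driven Cre and a floxed EGFP reporter. All cultures grew in proliferation medium with PDGFaa and bFGF, and the 3 libraries of each group came from different litters. Ctr cells received neither agent. EZH2i cells received the EZH2 inhibitor EPZ011989 at 1.5 µM for 4 days, renewed every 48 h. IFN-γ cells received interferon-gamma at 100 ng/ml for 6 h. IFN-γ + EZH2i cells received the 4 days of inhibitor and then both agents for the 6 h. EZH2 is the enzyme that places the repressive histone mark H3K27me3, so the design asks whether IFN-γ changes a gene, whether the inhibitor does, and whether one changes the effect of the other.

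In the classical pathway, C1q bound to a target activates the proteases C1r and C1s, which cleave C4 and C2. The C4 and C2 fragments form an enzyme that cleaves C3, the component on which all routes converge. Factor B, encoded by Cfb, builds the corresponding enzyme of the alternative pathway. C1 inhibitor, encoded by Serping1, blocks C1r and C1s, decay accelerating factor (Cd55) dismantles the C3-cleaving enzymes on cell surfaces, and Cd59a blocks the terminal pore. In the brain, microglia are the usual source of C1q, and glia can make C3 and C4 during inflammation.

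Library totals ran from 17403896 to 66546017 estimated counts, with a median of 33625880. Levels are given in CPM, counts scaled to a common library size, or in TPM, which is also scaled by transcript length. The summed level of 6 OPC markers was 6108 to 6952 CPM in Ctr and 4214 to 5708 in IFN-γ. Among them, Pdgfra (log2 fold change -1.07, adjusted p = 0.0141) and Cspg4 (log2 fold change -1.16, adjusted p = 0.00245) fell with IFN-γ in edgeR's quasi-likelihood test. Ptprz1 (-0.034), Sox10 (0.078), Olig1 (-0.31) and Olig2 (-0.42) were not called. Irf1, a transcription factor that IFN-γ induces, rose from 11.98 ± 0.41 CPM in Ctr to 951.0 ± 115.9 in IFN-γ (SD, n = 3; adjusted p = 2.98e-10). Ezh2 RNA was 49.4 ± 5.21 CPM in Ctr and 39.6 ± 7.66 in EZH2i, a difference that did not pass the test (adjusted p = 0.806), and RNA does not read out inhibition of the enzyme.

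The promoter windows of 4 of the genes are given first, chosen among the genes for which a window was found. C1ra and C1s1 are neighbours that rose together, while C3 and Cd59a did not pass the test. Each window runs from 250 bases before to 50 bases after a RefSeq transcription start (GRCm38.p6), 5′ to 3′ on the strand of the gene. Capitals mark matches on either strand to TTCNNNGAA, the core of gamma-activated sequence elements, or to GAAANNGAAA, a core of sites for interferon regulatory factors. A window was found for 5 of the 9 genes, with Cd55 the fifth and C1s1 at 2 nearby starts. None was found for Serping1, C4b and C2, which rose with IFN-γ, or for Cfb.
C1ra (chr6:124512371-124512670, plus strand): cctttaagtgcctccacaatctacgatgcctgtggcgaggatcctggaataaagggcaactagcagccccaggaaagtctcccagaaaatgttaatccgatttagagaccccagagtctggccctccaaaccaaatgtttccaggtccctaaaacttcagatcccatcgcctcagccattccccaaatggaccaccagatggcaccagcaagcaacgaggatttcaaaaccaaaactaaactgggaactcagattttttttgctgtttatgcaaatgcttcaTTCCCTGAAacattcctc
C1s1 (chr6:124542310-124542609, minus strand): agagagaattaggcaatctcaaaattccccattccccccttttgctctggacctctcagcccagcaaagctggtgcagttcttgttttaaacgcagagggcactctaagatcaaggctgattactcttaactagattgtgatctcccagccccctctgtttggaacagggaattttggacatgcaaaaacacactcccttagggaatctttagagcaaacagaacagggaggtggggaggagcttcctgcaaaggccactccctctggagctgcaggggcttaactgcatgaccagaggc
C3 (chr17:57228087-57228386, minus strand): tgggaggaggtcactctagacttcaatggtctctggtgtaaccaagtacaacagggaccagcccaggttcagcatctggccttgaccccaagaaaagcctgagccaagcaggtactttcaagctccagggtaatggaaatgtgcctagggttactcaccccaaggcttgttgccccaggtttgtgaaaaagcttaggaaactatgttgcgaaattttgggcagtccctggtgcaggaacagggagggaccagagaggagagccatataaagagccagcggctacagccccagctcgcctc
Cd59a (chr2:104095551-104095850, plus strand): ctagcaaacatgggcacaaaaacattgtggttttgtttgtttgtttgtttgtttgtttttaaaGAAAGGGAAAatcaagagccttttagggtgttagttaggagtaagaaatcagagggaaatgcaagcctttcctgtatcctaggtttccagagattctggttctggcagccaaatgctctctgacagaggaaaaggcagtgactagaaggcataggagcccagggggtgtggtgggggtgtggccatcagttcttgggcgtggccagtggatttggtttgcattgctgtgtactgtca

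The C1ra window held 1 match, TTCCCTGAA, 33 bases after the RefSeq start. That start lies 216 bp downstream of the start of C1ra-201, the transcript that took all C1ra counts, so the window lies largely within the transcribed span of C1ra-201. The Cd59a window held 1 match, GAAAGGGAAA, 187 bases before the start. The windows of Cd55, C1s1 and C3 held neither string. Of 32851 promoter windows of 300 bases, 8.30% held TTCNNNGAA and 3.44% held GAAANNGAAA. These are matches of letters only, and no binding was measured in these libraries.

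IFN-γ raised 5 of the 9 genes in cells without the inhibitor: Serping1, C1ra, C4b, C2 and C1s1. Cfb stood higher in every IFN-γ library than in any Ctr library without passing the test, and C3, Cd55 and Cd59a did not pass it. Over all 18995 genes tested, 6.65% were called higher and 8.75% were called in either direction, against 5 of 9 here. Of all genes 2.1% were called lower, and none of the 9. The median log2 fold change of the 9 genes was 1.89, beside 0.0010 over all genes tested. Groups did not overlap for 6 of the 9 genes, all higher with IFN-γ, beside 13.5% of all genes higher and 9.52% lower. The summed level of the 9 genes was 8.78 ± 0.60 CPM in Ctr and 195.3 ± 37.5 CPM in IFN-γ (SD, n = 3). In these bulk libraries a change in the number of cells that make an RNA and a change in RNA per cell cannot be told apart.

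**Figure D1:**
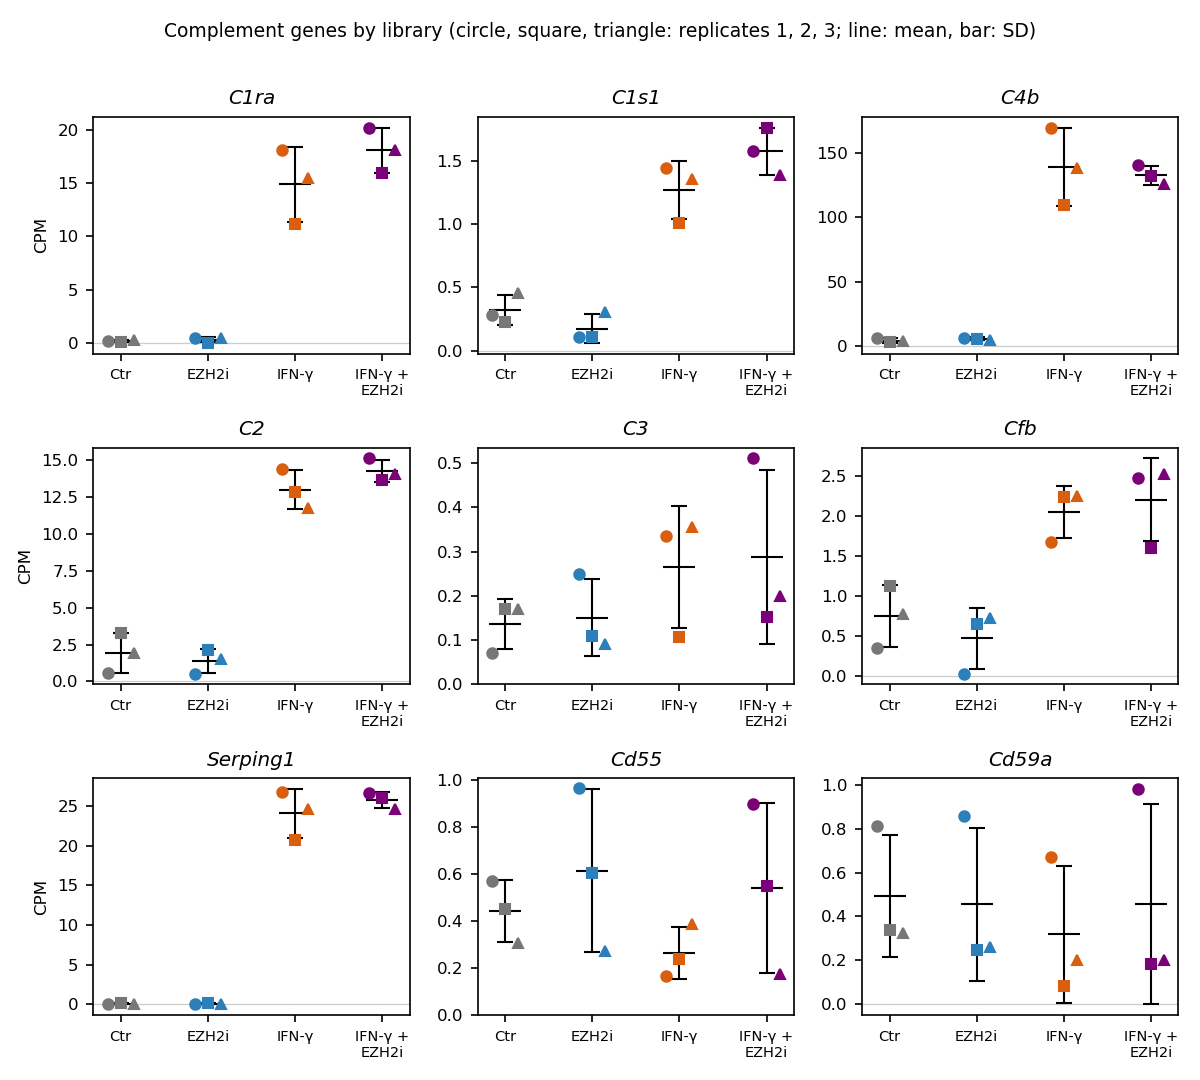
Level in CPM (vertical axes, linear, 1 scale per gene) of the 9 complement genes in the 4 groups. Each symbol is 1 library, the horizontal line the mean and the bar the SD of 3 libraries. For C1ra, C1s1, C4b, C2, Cfb and Serping1 all 6 libraries with IFN-γ lie above all 6 without it, whereas C3, Cd55 and Cd59a overlap.

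The proteases that start the classical pathway both rose. C1ra, at chr6:124512405-124523443 on the plus strand, had 5, 1 and 16 counts in the Ctr libraries and 539, 417 and 999 in the IFN-γ libraries. In CPM these were 0.18, 0.056 and 0.27 against 18.1, 11.1 and 15.4. Every IFN-γ library stood far above every Ctr library. The log2 fold change was 6.21 (SE 0.65, edgeR adjusted p = 4.84e-05), and 6.82 without Ctr replicate 3.

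C1s1, at chr6:124530345-124542359 on the minus strand, lies beside C1ra and faces it tail to tail. It had 0.28, 0.23 and 0.46 CPM in Ctr and 1.44, 1.01 and 1.36 in IFN-γ, from 8, 4 and 27 counts against 43, 38 and 88. The groups did not overlap, but the rise was smaller than for C1ra, with a log2 fold change of 1.89 (SE 0.41, edgeR adjusted p = 0.0115). This call was lost without Ctr replicate 1 (adjusted p = 0.0533), without Ctr replicate 2 (adjusted p = 0.0572) and with counts rebuilt from TPM (adjusted p = 0.103).

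Per transcript length, C1s1 was the more abundant protease of the pair in Ctr and C1ra in IFN-γ. The TPM ratio of C1ra to C1s1 was 0.22 ± 0.13 in Ctr and 7.74 ± 2.56 in IFN-γ (SD, n = 3), and the ranges, 0.12 to 0.37 and 6.07 to 10.7, did not overlap. In EZH2i the ratio was 0.96, 0 and 1.41 in the 3 libraries, and in IFN-γ + EZH2i 7.89 ± 2.61. The Ctr ratios rest on 1 to 27 counts a gene and library. C1rb and C1s2 are near-identical copies: 56.9% of the 31-base words of C1ra-201 occur in C1rb and 37.0% of those of C1s1-204 in C1s2. C1rb had at most 3 counts and C1s2 at most 13 in any library.

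C4b and C2, whose products form the classical C3-cleaving enzyme, both rose. C4b, at chr17:34728380-34743882 on the minus strand, was the gene of the 9 with most counts in every library except Ctr replicate 2, where C2 had 58 counts and C4b 55. It had 6.42, 3.11 and 3.90 CPM in Ctr and 169.6, 109.7 and 138.0 in IFN-γ. The log2 fold change was 4.95 (SE 0.28, edgeR adjusted p = 1.38e-07). C4b made up 49.9% ± 1.64 of the summed TPM of the 9 genes in IFN-γ and 22.6% ± 14.9 in Ctr (SD, n = 3). Of the summed CPM it made up 71.0% ± 1.67 in IFN-γ and 50.6% ± 17.1 in Ctr.

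C4a, the neighbouring copy of C4b, shares 48.8% of the 31-base words of C4b-201, so the split of reads between them is an estimate. It had 0.67 ± 0.12 CPM in Ctr and 2.04 ± 0.19 in IFN-γ (SD, n = 3), with a log2 fold change of 1.63 (SE 0.31, edgeR adjusted p = 0.00493). With the counts of each gene and its copy summed, C4b, C1ra and C1s1 were still called.

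C2, at chr17:34862604-34898265 on the minus strand, had 0.57, 3.28 and 1.93 CPM in Ctr and 14.4, 12.8 and 11.8 in IFN-γ. Its Ctr libraries varied more than those of C4b, and the groups did not overlap. The log2 fold change was 2.79 (SE 0.51, edgeR adjusted p = 0.00416). With counts rebuilt from TPM it was 2.10 and was not called (adjusted p = 0.0942).

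The C2 counts with and without IFN-γ were assigned to different transcripts. C2-201 has 18 exons and starts at chr17:34881950-34882100. C2-205 has 14 exons and starts 13447 bp further upstream, at chr17:34895407-34895547, inside the span of Zbtb12, a gene on the other strand. C2-205 lacks 5 exons of C2-201, 835 bases in all, and has 1 exon of its own of 141 bases.

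In Ctr, C2-205 took 15, 43.2 and 89.5 of the 16, 58 and 114 C2 counts, and in EZH2i 14.9, 55.7 and 70.7 of 15, 77 and 99. C2-201 took 0, 3.5 and 3.5 counts in Ctr and 0 in each EZH2i library. With IFN-γ the assignment was the opposite: C2-201 took 376.6, 444.9 and 692.2 of 429, 482 and 762 counts, and C2-205 took 0. In IFN-γ + EZH2i, C2-201 took 323.7, 411.9 and 533.3 of 354, 449 and 565, and C2-205 again 0. A total of 0 allows C2-205 a share of up to 0.180% of the C2 counts in IFN-γ and 0.219% in IFN-γ + EZH2i, for counting error only. These limits treat every C2 count as able to tell the transcripts apart. Reads within the shared exons cannot, so the share could be larger.

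All 12 libraries divided in this way by IFN-γ, and none by the inhibitor. These are Salmon's estimated counts and not reads over a splice junction, which the deposited tables do not hold, and most exons are common to both transcripts. In addition, 59.7% of the 31-base words of C2-201 occur in Gm20547, a gene model that joins C2 and Cfb and had 0 counts in all libraries.

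**Figure D2:**
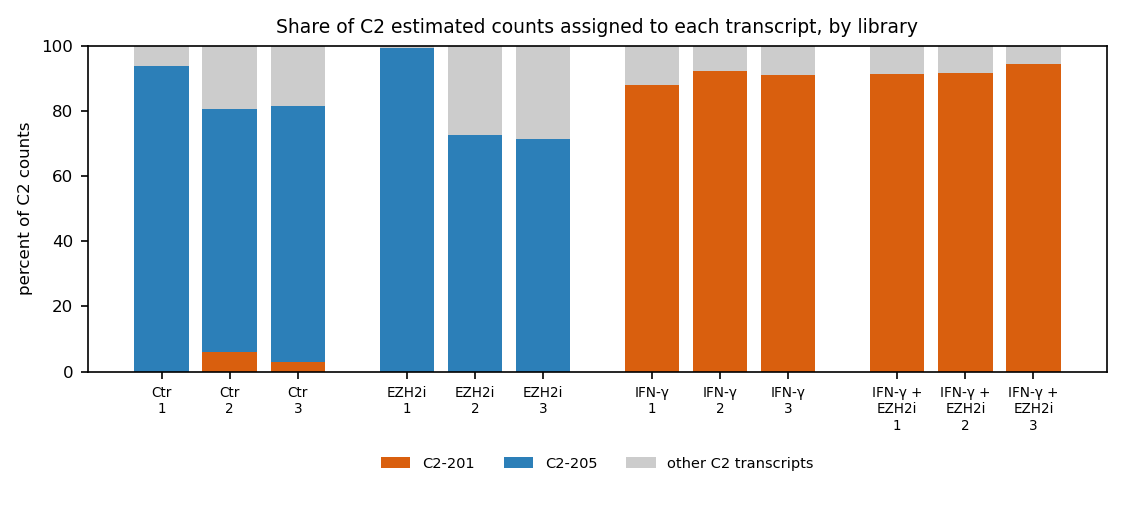
Percent of the C2 estimated counts (vertical axis) assigned to C2-201, C2-205 and all other C2 transcripts in each of the 12 libraries (horizontal axis, replicate number under the group). C2-205 took the largest share in the 6 libraries without IFN-γ and none in the 6 with it, where C2-201 took 87.8% to 94.4%.

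The central component C3 and the alternative-pathway factor Cfb did not pass the test. C3, at chr17:57203970-57228136 on the minus strand, had 2, 3 and 10 counts in Ctr and 10, 4 and 23 in IFN-γ, or 0.071 to 0.17 CPM against 0.11 to 0.36. The groups overlapped, and the log2 fold change of 0.94 had a 95% interval from -0.52 to 2.40 (adjusted p = 0.530). With counts rebuilt from TPM the value was 1.99 (adjusted p = 0.350). The interval does not exclude a rise.

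Cfb, at chr17:34856374-34862518 on the minus strand, had 0.36, 1.13 and 0.78 CPM in Ctr and 1.68, 2.24 and 2.25 in IFN-γ. The groups did not overlap, and the log2 fold change of 1.47 (SE 0.61, 95% interval 0.15 to 2.80) missed the threshold (edgeR adjusted p = 0.205). With the replicate block, which called 4032 of all genes beside 1663 without it, Cfb was called (log2 fold change 1.54, adjusted p = 0.0404). It was also called without EZH2i replicate 1 (adjusted p = 0.0351), a library outside this comparison that enters the shared estimate of spread and has 1 Cfb count. Of the 31-base words of Cfb-202, 81.5% occur in Gm20547.

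Serping1 had the largest fitted rise of the 9 genes, from almost no reads. At chr2:84765387-84775444 on the minus strand, it had 2, 2 and 0 counts in Ctr and 801, 780 and 1603 in IFN-γ, or 26.8, 20.8 and 24.7 CPM. The 0 in Ctr replicate 3 allows up to 0.051 CPM. The ratio of pooled counts, scaled for library size, was 611 with a 95% exact interval from 238 to 2243 that covers counting error only. In the test across all genes its log2 fold change was 9.12 (SE 0.61, edgeR adjusted p = 7.66e-07), the 33rd highest of all genes. The fitted value depends on the handling of the few Ctr counts: it was 9.80 without Ctr replicate 2 and 8.05 without Ctr replicate 3. No 31-base word of Serping1-201 occurs in another gene.

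The membrane regulators Cd55 and Cd59a were low throughout. Cd55, at chr1:130439027-130462744 on the minus strand, had 0.57, 0.45 and 0.31 CPM in Ctr and 0.17, 0.24 and 0.39 in IFN-γ. Cd59a, at chr2:104095801-104115354 on the plus strand, had 0.82, 0.34 and 0.32 CPM in Ctr and 0.67, 0.080 and 0.20 in IFN-γ. The groups overlapped for both genes. The log2 fold change was -0.65 for Cd55 (95% interval -2.04 to 0.73, adjusted p = 0.675) and -0.69 for Cd59a (95% interval -2.57 to 1.19, adjusted p = 0.760), the latter -1.71 without IFN-γ replicate 1 (adjusted p = 0.370).

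Replicate 1 had the highest Cd59a level of its group in all 4 groups, at 0.67 to 0.98 CPM against 0.080 to 0.34 in the other libraries. Replicate 1 also had the lowest C2 and Cfb levels in both groups without IFN-γ. Without replicate 1 of every group, a choice made after seeing these values, 4 of the 9 genes were called in IFN-γ versus Ctr, C1s1 being lost (adjusted p = 0.119).

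Levels per transcript length put the 9 genes in a different order with IFN-γ. In Ctr the order of mean TPM was C2 (1.42 ± 1.11), C4b (0.58 ± 0.15), Cfb (0.40 ± 0.29), Cd59a (0.28 ± 0.056), C1s1 (0.17 ± 0.047), Cd55 (0.15 ± 0.012), C1ra (0.041 ± 0.033), Serping1 (0.031 ± 0.028) and C3 (0.020 ± 0.012; SD, n = 3). Of these neighbours, only Cd59a and C1s1, and Cd55 and C1ra, had ranges over the 3 libraries that did not overlap. Much of the C2 value came from 2 transcripts with few counts, C2-204 (0.43 TPM from 19 counts) and C2-202 (0.33 from 12). C2-205 stood at 0.60 TPM from 148 counts, beside 0.54 for C4b-201 from 463. For Cfb, 0.24 TPM came from Cfb-205, with 19 counts. The Ctr order thus depends on how few counts were split among transcripts.

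In IFN-γ the order began with C4b (25.3 ± 1.53 TPM), Serping1 (13.4 ± 1.23), C2 (6.36 ± 0.98) and C1ra (4.01 ± 0.65), and each range stood apart from the next. Cfb (0.80 ± 0.22), C1s1 (0.56 ± 0.22) and Cd59a (0.15 ± 0.14) followed, with C3 and Cd55 at 0.091 ± 0.017 and 0.090 ± 0.040. The ranges of Cfb and C1s1 overlapped, as did those of Cd59a, C3 and Cd55. Serping1 thus moved from the eighth to the second place, and its TPM was 3.37 ± 0.30 times that of C1ra in IFN-γ and 2.91 ± 0.30 times in IFN-γ + EZH2i.

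**Figure D3:**
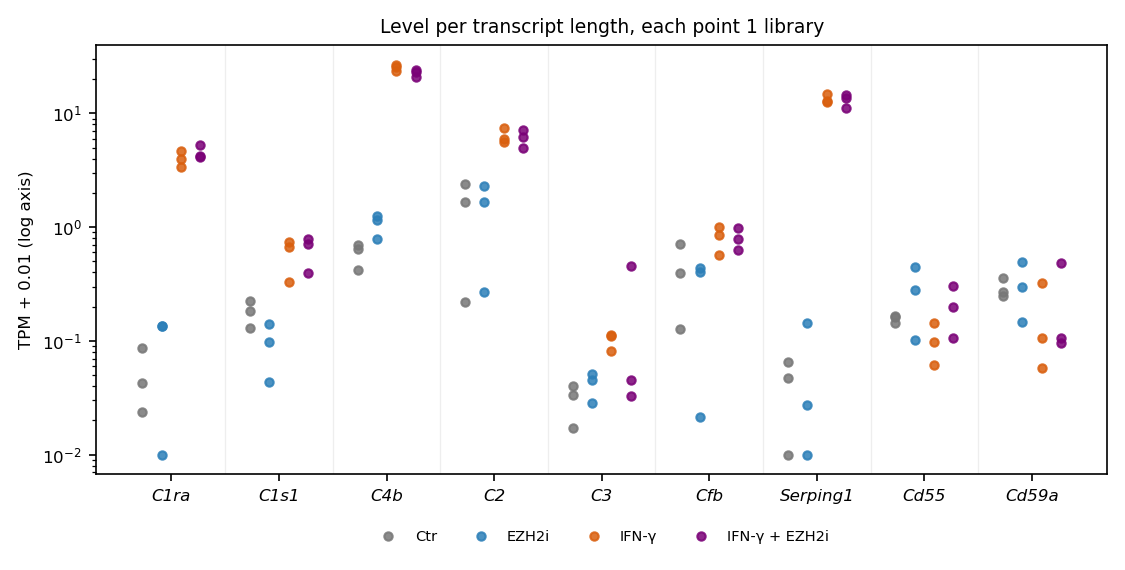
Level per transcript length (TPM + 0.01, log axis) of each of the 9 genes (horizontal axis), each point 1 library and each colour a group. With IFN-γ, C4b lies at 21.1 to 26.6 TPM and Serping1 at 11.1 to 14.8, while C3, Cd55 and Cd59a stay under 0.5 TPM in all 12 libraries.

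In cells pretreated with the inhibitor, IFN-γ raised 5 of the 9 genes, Serping1, C1ra, C4b, C2 and C1s1. This is the fit without the replicate block. With the block, which suits the pairing of these libraries, 6 were called, Cfb being added. Over all genes 5.9% were called higher, 2.17% lower and 8.07% in either direction. The median log2 fold change of the 9 genes was 3.05, beside 0.0017 over all genes. IFN-γ + EZH2i stood above EZH2i without overlap for 6 of the 9 genes, and of all genes 11.8% were higher and 9.66% lower without overlap. With 1 library left out, IFN-γ versus Ctr gave 4 to 6 called genes and this comparison 5 to 6. It has no library in common with IFN-γ versus Ctr, although all 12 libraries entered 1 fit. The comparisons are still not independent. Same-numbered libraries of IFN-γ + EZH2i and IFN-γ deviated alike from the means of their groups (correlations 0.604, 0.493 and 0.642 over all genes tested).

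C4b had 6.90, 6.00 and 4.69 CPM in EZH2i and 140.4, 132.0 and 125.6 in IFN-γ + EZH2i, a log2 fold change of 4.51 (SE 0.27, adjusted p = 2.57e-07). C1ra had 0.43, 0 and 0.44 CPM against 20.2, 16.0 and 18.1, a log2 fold change of 5.90 (SE 0.62, adjusted p = 4.54e-05) that was 6.51 without EZH2i replicate 3. The 0 in EZH2i replicate 2 allows up to 0.082 CPM. For both genes the groups were far apart.

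Serping1 had 0, 6 and 2 counts in EZH2i and 626, 856 and 993 in IFN-γ + EZH2i. The pooled ratio was 375 (95% exact interval 190 to 870, counting error only) and the log2 fold change 8.62 (SE 0.56, adjusted p = 5.81e-07), or 10.06 without EZH2i replicate 2, which holds 6 of the 8 EZH2i counts. C2 had 0.54, 2.11 and 1.50 CPM against 15.1, 13.6 and 14.0, a log2 fold change of 3.34 (SE 0.52, adjusted p = 0.00117), and 2.30 with counts rebuilt from TPM, which was not called (adjusted p = 0.0663).

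C1s1 had 0.11, 0.11 and 0.30 CPM in EZH2i and 1.58, 1.76 and 1.39 in IFN-γ + EZH2i. The log2 fold change was 3.05 (SE 0.43, adjusted p = 5.21e-04), 3.82 without EZH2i replicate 3 and 2.14 with C1s2 added.

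Cfb had 0.036, 0.66 and 0.73 CPM in EZH2i and 2.48, 1.61 and 2.53 in IFN-γ + EZH2i. The groups did not overlap, and the log2 fold change of 2.14 (SE 0.61) narrowly missed the threshold in the fit without the replicate block (edgeR adjusted p = 0.0554). Replicate numbers paired the libraries in this comparison, and with the replicate block Cfb was called (log2 fold change 2.24, adjusted p = 0.00625). Cfb was also called by DESeq2 (adjusted p = 0.00211), without the filter on low counts (adjusted p = 0.0331) and without EZH2i replicate 1 (adjusted p = 0.0434). Of all genes, the block called 3661 and DESeq2 2047, beside 1533 in the edgeR fit without the block. C3 (log2 fold change 0.95, 95% interval -0.50 to 2.41, and 2.54 with counts rebuilt from TPM, adjusted p = 0.178), Cd55 (-0.19, -1.51 to 1.13) and Cd59a (-0.015, -1.87 to 1.84) did not pass the test.

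**Figure D4:**
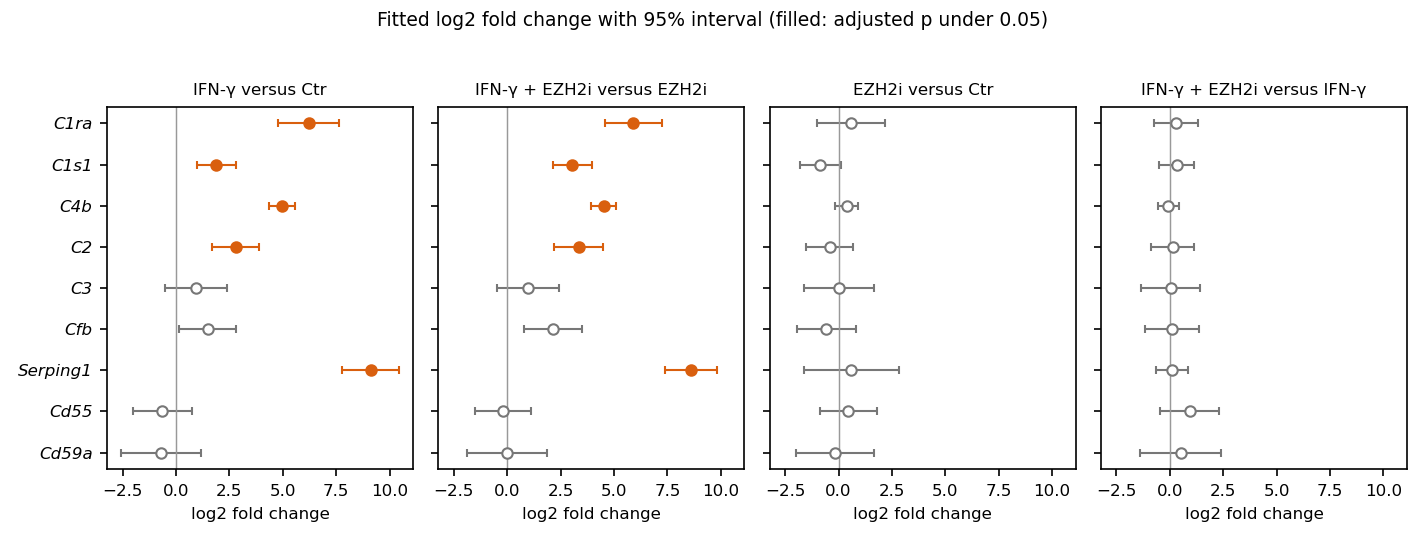
Fitted log2 fold change (horizontal axes, 1 scale) with its 95% interval for the 9 genes in 4 comparisons. The fit had no replicate block. Filled orange points have an adjusted p under 0.05: Serping1, C1ra, C4b, C2 and C1s1 in both comparisons of IFN-γ, and no gene in either comparison of the inhibitor.

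With inhibition of EZH2 alone, edgeR's test called 0 of the 9 genes and 0.405% of all genes. The lowest adjusted p was 0.811, for C1s1, and 0 of the 9 had an unadjusted p under 0.05. DESeq2 and the fit with the replicate block also called 0 of the 9, while they called 308 and 771 of all genes, beside edgeR's 77. The summed level was 9.47 ± 1.00 CPM in EZH2i and 8.78 ± 0.60 in Ctr (SD, n = 3), and no gene of the 9 had groups without overlap, beside 7.37% of all genes higher and 5.34% lower.

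The intervals of these differences varied between the genes. C4b had the narrowest, with a log2 fold change of 0.37 (95% interval -0.17 to 0.92). C1s1 (-0.85, -1.83 to 0.13) and C2 (-0.42, -1.54 to 0.70) allow larger differences downward. Without EZH2i replicate 3, C1s1 was at -1.62 (adjusted p = 0.272). For C1ra (0.59, -0.99 to 2.18) and Serping1 (0.60, -1.63 to 2.83) the intervals reach past a 4-fold rise. These genes had 0 to 29 counts a library.

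With the inhibitor added to IFN-γ, edgeR's test again called 0 of the 9 genes, beside 0.353% of all genes (0.347% higher and 0.00526% lower). The lowest adjusted p was 0.980, for Cd55, and 0 of the 9 had an unadjusted p under 0.05. DESeq2 and the replicate block each called 0 of the 9, while they called 264 and 748 of all genes, beside edgeR's 67. The summed level was 195.9 ± 11.5 CPM in IFN-γ + EZH2i and 195.3 ± 37.5 in IFN-γ. Groups overlapped for all 9 genes, and of all genes 6.08% were higher and 4.26% lower without overlap.

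The SE was 0.34 for Serping1 and 0.47 for C1ra here, beside 1.02 and 0.73 in EZH2i versus Ctr, where counts were lower. It changed less for C4b (0.23 beside 0.25), C2 (0.46 beside 0.51) and C1s1 (0.37 beside 0.45). The log2 fold change was -0.068 for C4b (95% interval -0.57 to 0.43), 0.098 for Serping1 (-0.65 to 0.85), 0.14 for C2 (-0.88 to 1.15), 0.28 for C1ra (-0.74 to 1.30) and 0.31 for C1s1 (-0.50 to 1.12). Cfb (0.099, -1.15 to 1.35), C3 (0.040, -1.34 to 1.42), Cd55 (0.93, -0.44 to 2.29) and Cd59a (0.51, -1.39 to 2.41) were measured less closely.

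The interaction, which asks whether the inhibitor changed the effect of IFN-γ, was not called for any of the 9 genes or for any of the 18995 genes, of which 127 had an unadjusted p under 0.05. None of the 9 was among them, and DESeq2 and the replicate block called 0 of the 9. The 127 genes are fewer than the share of 0.05 that a test gives on average where nothing changes. The fit was therefore conservative for the interaction, and its 0 calls do not show that an interaction is absent. The largest value was that of C1s1, at 1.16 on the log2 scale (SE 0.58) and 1.93 without EZH2i replicate 3, followed by Cd59a at 0.68 (SE 1.21) and Cfb at 0.67 (SE 0.85). C4b was at -0.44 (SE 0.34). All adjusted p-values were 0.999912.

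Of a list of 50 other complement genes, 20 had enough counts to be tested: 5 of 15 recognition molecules and proteases, 4 of 10 components, 8 of 16 regulators and 3 of 9 receptors. In IFN-γ versus Ctr, C4a was the only one of the 20 called, beside 6.65% of all genes called higher, and their median log2 fold change was 0.048. Their values ran from -1.67 for the receptor Cd93 (adjusted p = 0.0788) to 1.93 for the anaphylatoxin receptor C3ar1 (adjusted p = 0.0519), both named after their values were seen. In IFN-γ + EZH2i versus EZH2i none was called, beside 8.07% of all genes in either direction, and the median was 0.0051.

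Colec12, a scavenger receptor with a collectin domain, was the only gene of the 20 called in a comparison of the inhibitor. It had 0.90 CPM in IFN-γ and 2.21 in IFN-γ + EZH2i on average, with a log2 fold change of 1.29 (adjusted p = 0.0412), and 1.54 in Ctr and 3.32 in EZH2i, which was not called (adjusted p = 0.0709). None of the 20 was called in EZH2i versus Ctr. Of the C1q chains, with which C1r and C1s work, C1qa had 0 counts in all 12 libraries, C1qb at most 3 and C1qc at most 4.

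Markers of other cell types were measured beside the complement genes. The 9 microglia and macrophage markers summed to 0.68 to 0.98 CPM in Ctr and 0.99 to 1.61 in IFN-γ, of which only 2 had enough counts to be tested and neither was called. Aif1 and Trem2 had at most 2 counts in any library. The 5 astrocyte markers summed to 450 to 941 CPM in Ctr and 405 to 1101 in IFN-γ, ranges that overlap, and 0 of 5 were called in any comparison. The 4 endothelial markers summed to 9.20 to 16.9 and 8.26 to 16.5 CPM, with 0 of 3 called.

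Fibroblast and pericyte markers summed to 0.56 to 1.38 CPM in Ctr and 1.94 to 3.15 in IFN-γ. One of their 3 tested genes, Lum, rose (log2 fold change 3.94, adjusted p = 2.39e-04), from 0.083 to 1.35 CPM on average. Col1a1 (0.088) and Col3a1 (-0.17) were not called, and Dcn had at most 4 counts. Neuron markers summed to 16.0 to 19.4 CPM in Ctr and 17.2 to 29.3 in IFN-γ, with Syt1 as 1 of 5 called higher. Snap25 (-0.097), Rbfox3 (-0.49), Gad1 (0.42) and Slc17a7 (1.23) were not called. From EZH2i to IFN-γ + EZH2i, the sums ran from 1.07 to 1.26 and from 1.12 to 1.66 CPM for microglia, from 627 to 1419 and from 625 to 1459 for astrocytes, and from 1.23 to 2.36 and from 2.22 to 2.56 for fibroblasts and pericytes. Those of OPC markers ran from 5582 to 5709 and from 3837 to 4555. In this comparison Lum (log2 fold change 4.55, adjusted p = 1.37e-04) and Syt1 (2.03, adjusted p = 4.79e-04) rose, and Pdgfra (-1.20, adjusted p = 0.00755) and Cspg4 (-1.13, adjusted p = 0.00290) fell. No other marker of these cell types was called in it. Mature oligodendrocyte markers summed to 1471 to 1839 CPM in Ctr, 808 to 1287 in EZH2i, 1393 to 1611 in IFN-γ and 781 to 1272 in IFN-γ + EZH2i, and 0 of 5 tested were called in any comparison. The part of these cells, and of the lower Pdgfra and Cspg4, in the complement results was not tested.

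C4b, Cfb and C2 lie within the same stretch of chromosome 17. Of 16 other tested genes from 250 kb on the C4b side to 100 kb on the far side of the C2-201 start, 3 rose in IFN-γ versus Ctr, where 6.65% of all genes were called higher: C4a, Stk19 (log2 fold change 1.01, adjusted p = 0.00263) and the non-coding 1110038B12Rik (log2 fold change 0.74, adjusted p = 0.0265). In the inhibitor-treated cells 1 rose, Stk19 (log2 fold change 0.97, adjusted p = 0.00344), where 5.9% of all genes were called higher. Nelfe, 2 bp from Cfb, had a log2 fold change of 0.018 in IFN-γ versus Ctr. Ehmt2 lies 204 bp from the end of the C2 gene span, but its midpoint is 24.2 kb from the C2-201 start. Its log2 fold change was 0.058. Neither was called (adjusted p = 0.973 and 0.912). Zbtb12, with its midpoint 6.1 kb from that start, was at -0.12 and was not called (adjusted p = 0.865).

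**Figure D5:**
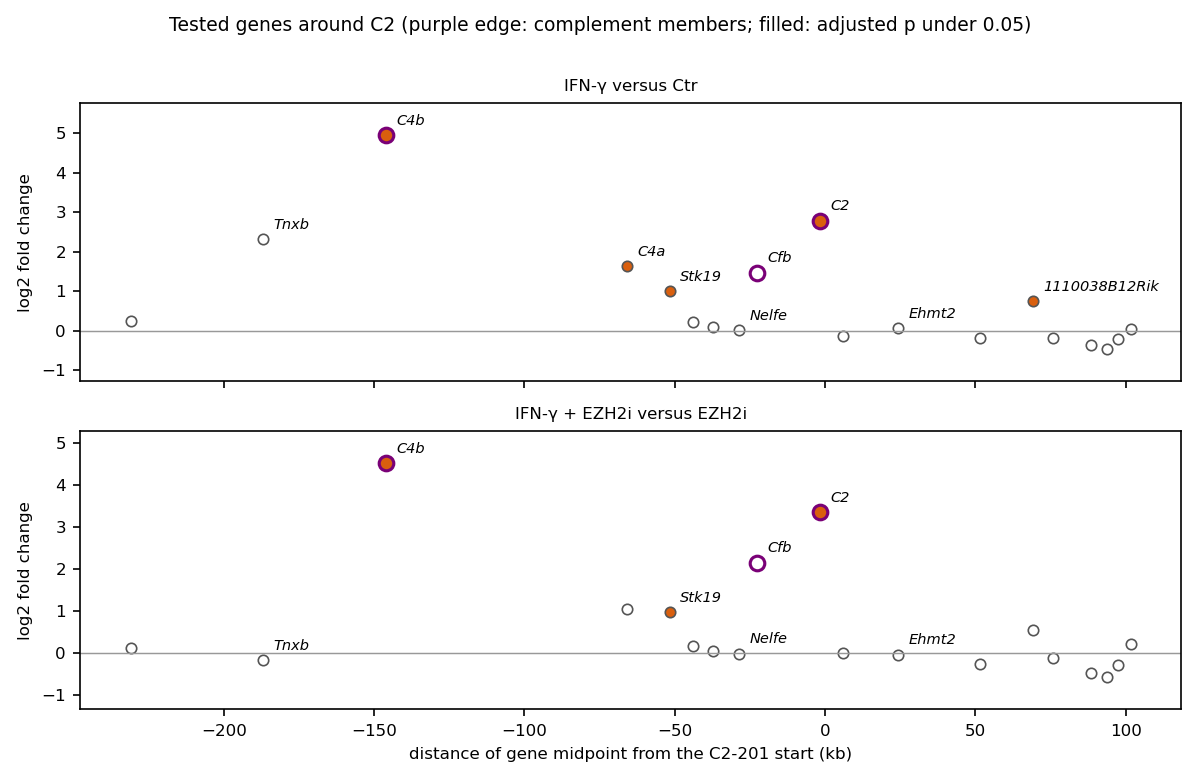
Log2 fold change (vertical axes) of the tested genes around C2 against the distance of the midpoint of each gene from the C2-201 start in kb (horizontal axis), for IFN-γ versus Ctr (top) and IFN-γ + EZH2i versus EZH2i (bottom). C4b and C2 stand above the other genes in both panels, and Nelfe and Ehmt2 lie near 0.

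Over all 9 genes, the nearest protein-coding genes on each side that are not themselves among the 9 came to 15, of which 7 were tested. In IFN-γ versus Ctr 1 of the 7 was called, where 6.65% of all genes were called higher. This was Ube2l6, a ubiquitin-like conjugating enzyme 23384 bp from Serping1, with a log2 fold change of 4.12 (SE 0.22, adjusted p = 8.26e-08). It was also the only one called in IFN-γ + EZH2i versus EZH2i (log2 fold change 4.75, adjusted p = 2.65e-08), where 5.9% of all genes were called higher. C1rl, a C1r-like protease gene 1762 bp from C1ra, had a log2 fold change of 1.10 in IFN-γ versus Ctr and was not called (adjusted p = 0.472).

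Across the 12 libraries the genes whose log2 CPM was most like each complement gene, by Pearson's r, were mostly genes that also rose with IFN-γ. They were Apol9b (0.998) and Sbno2 (0.997) for C4b, Lck (0.997) and Slamf8 (0.996) for Serping1, Lgals3bp (0.992) and Ido1 (0.991) for C1ra, Dhx58 (0.985) and Carmil1 (0.985) for C2, and Hdc (0.976) and Parp4 (0.974) for C1s1. The r values describe 12 libraries in 4 groups, of which pairs share a treatment. For Cfb they were 0.949 and 0.942 (Gm44560 and Gm37277), for C3 0.920 and 0.877 (Gm42788 and G6pdx), for Cd55 0.868 and 0.862 (Fam216a and Gm10698), and for Cd59a 0.970 and 0.951 (1110008P14Rik and Mink1). Among the 9 genes themselves, r was 0.986 for C4b with Serping1 and 0.974 for C4b with C1ra, and lowest at -0.508 for Cfb with Cd55.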

How the data were processed

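Per the labels and the methods of the study, the authors trimmed the reads of 12 total-RNA libraries and ran Salmon 0.8.2 on GRCm38 transcripts. The deposited files, 1 per library, hold estimated counts and TPM per transcript. All 141862 transcript IDs matched GENCODE M21. The strand setting is not given in the sources used here. The deposited tables of the authors' own DESeq2 comparisons (fold changes and p-values) were not used. For each gene, the transcripts' estimated counts were added up, rounded, filtered by filterByExpr, scaled by TMM and tested in 1 quasi-likelihood fit of all 12 libraries by group (edgeR 4.0.16, R 4.3.3), with Benjamini-Hochberg adjustment over 18995 genes and a threshold of 0.05. The fit was tested on simulated counts. SE was derived from the F statistic, and likeness to other genes used log2(CPM + 0.1).

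The 9 genes, the lists and the tests were chosen with earlier results of these data known. Other complement genes were named where called in a pairwise comparison, with near-identical copies, nearest coding neighbours and the 2 most alike genes of each of the 9; the C1q chains were named as microglia markers. Genes beside C2 that were called, other than these, were named after their values were seen. Counts rebuilt from TPM (length-scaled TPM) undo differences in transcript length. Replicate numbers were taken to pair libraries where all 3 same-numbered pairs had deviations correlated above 0.1 over all genes tested, which held for IFN-γ + EZH2i against IFN-γ (0.604, 0.493 and 0.642) and EZH2i (0.53, 0.496 and 0.621), but not for Ctr with IFN-γ (0.49, 0.0854 and 0.544) or EZH2i (0.441, 0.0467 and 0.495). Over the 13030 genes with a mean log2 CPM above 1 it held for all comparisons (lowest 0.138), so the pairing with Ctr depends on the genes used, and the block is given where it changes a call. Library totals of 17403896 to 66546017 leave genes with under about 30 counts imprecise.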

Additional observations from a re-analysis of the deposited data

Results flagged for a closer look

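For C1s1, the ratio of inhibitor-treated to untreated level, taken between libraries with the same replicate number, was below 1 in all 3 pairs without IFN-γ and above 1 in all 3 pairs with it. On the log2 scale, with 0.1 CPM added to each level, the ratios for EZH2i versus Ctr were -0.89, -0.64 and -0.47. For IFN-γ + EZH2i versus IFN-γ they were 0.13, 0.74 and 0.033, and the means of the 3 differed by 0.965. The added 0.1 CPM is close to the C1s1 level in EZH2i (0.11 to 0.30 CPM) and draws these ratios toward 0. For C2 the ratios, taken in the same way, were -0.069, -0.61 and -0.34 without IFN-γ. With IFN-γ they were 0.073, 0.087 and 0.25, and the means differed by 0.479. Over all genes tested, the deviations of same-numbered Ctr and EZH2i libraries correlated at 0.441, 0.0467 and 0.495, and over 13030 genes with a mean log2 CPM above 1 at 0.675, 0.16 and 0.719. This difference between pairs was not tested. The interaction in the fit of all 12 libraries was 1.16 (SE 0.58) for C1s1 and 0.56 (SE 0.69) for C2, each with an edgeR adjusted p of 0.999912. C1s1 had 3 to 27 counts and C2 15 to 114 in the libraries without IFN-γ.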

How the results depend on the processing

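Of 104 recomputed counts of called genes, 103 stayed within 1.5 times the value given above. With length-scaled TPM, 3 of the 9 genes were called in IFN-γ versus Ctr in place of 5, C1s1 and C2 being lost. These counts take the length of the assigned transcripts into account, and for C2 these differed between groups. DESeq2 called 5 of the 9 genes in IFN-γ versus Ctr and 6 in IFN-γ + EZH2i versus EZH2i, where Cfb was added. Of all genes it called 2119 and 2047, beside 1663 and 1533 in the edgeR fit without the block. The replicate block called still more of all genes, 4032 and 3661. Of the 9 it called 6 in each comparison, since Cfb was also called in IFN-γ versus Ctr (log2 fold change 1.54, adjusted p = 0.0404). There the pairing depended on the genes used, and 6 of 6 libraries correlated best with their own number, against 5 of 6 for EZH2i versus Ctr. The block changed no other call. With 1 library left out, 4 to 6 genes were called in IFN-γ versus Ctr and 5 to 6 in IFN-γ + EZH2i versus EZH2i. Both comparisons of the inhibitor and the interaction gave 0 calls under all alternatives run.

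Of 840 recomputed fold changes, 795 kept direction and side of the threshold, 7 gained a call, 6 lost it and 32 turned direction. All that turned had main values that were not called. With the replicate block, C3 was at -0.0014 in EZH2i versus Ctr and -0.0023 in IFN-γ + EZH2i versus IFN-γ. Cd59a in IFN-γ + EZH2i versus EZH2i was at 0.17 with protein-coding transcripts and 0.025 with copies summed, and the cause was not tested. Without replicate 1 of every group, added after seeing the data, C4b was at 0.054 and Cfb at -0.11 in IFN-γ + EZH2i versus IFN-γ and the C1ra interaction at 0.034. With 1 library left out, log2 fold changes in EZH2i versus Ctr ran from -0.47 to 0.33 (C3), -0.95 to 0.41 (Cd59a), -0.85 to 0.11 (C2), -1.62 to -0.46 (C1s1), -0.84 to 1.29 (Serping1), -0.015 to 0.85 (Cd55) and -0.015 to 1.20 (C1ra). In IFN-γ + EZH2i versus IFN-γ they ran from -0.60 to 0.35 (C3), -0.21 to 0.097 (C4b), -0.027 to 0.28 (Cfb), -0.00027 to 0.18 (Serping1) and -0.66 to 1.53 (Cd59a). In IFN-γ + EZH2i versus EZH2i they ran from -0.76 to 0.29 (Cd55) and -1.20 to 0.76 (Cd59a), and for the interaction from -1.20 to 0.93 (Serping1), -0.92 to 0.30 (C1ra) and 0.77 to 1.93 (C1s1). Counts under about 30 a library limit C3, Cd55, Cd59a and, without IFN-γ, C1ra, C1s1 and Serping1.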
